A study of Rattus norvegicus with 8 samples.

Results

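The proteasome genes of rat sciatic nerve were taken as all gene IDs of the deposited count table that begin with Psma, Psmb, Psmc, Psmd, Psme, Psmf or Psmg followed by a digit, which gave 49 of 22601 IDs. They were compared between nerves with a chronic constriction injury (CCI, in which loose ligatures around the nerve model neuropathic pain) and nerves of sham-operated rats, both taken on day 15, with 4 polyA RNA libraries in each group. The sources used here give no strain, sex or age, and do not say whether a library came from 1 animal or from several, so every p-value reflects differences among these libraries, which may be technical in part. Of the 49 IDs, 48 name a subunit, assembly chaperone, activator or inhibitor of the proteasome. The other is Psmc3ip, which encodes a meiotic recombination factor that binds Psmc3 and is not a proteasome subunit. Testis-type Psma8 (1 to 10 counts per library) and thymus-type Psmb11 (0 to 6 counts) were too low to test, which left 47 tested genes.

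The proteasome degrades proteins tagged with ubiquitin. Its 20S core is a barrel of alpha and beta rings, in which the beta subunits Psmb5, Psmb6 and Psmb7 cut proteins. Interferon-gamma, and residence in immune cells, lead to the use of Psmb8, Psmb9 and Psmb10 in their places, which makes the immunoproteasome and favours peptides for MHC class I. The 19S cap recognises, unfolds and feeds ubiquitinated proteins to the core, the 11S caps (Psme1 with Psme2, or Psme3 alone) and Psme4 open the core without ATP, and Psmf1 inhibits the core in vitro.

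Total counts were between 42541217 and 54559292 per library, and 3 counts, the most that a count of 0 leaves room for, came to 0.0518 to 0.0771 CPM (counts scaled to a common library size, here with edgeR's TMM factors). The libraries carried the markers of nerve: myelinating Schwann cell genes such as Mbp were abundant, and all 8 of them fell in CCI, with a summed level of 6534 to 10050 CPM in CCI and 88980 to 105100 CPM in sham libraries. Leukocyte and macrophage genes rose in 10 of 11 cases (summed 5238 to 6089 CPM in CCI and 1004 to 1562 CPM in sham libraries). T and NK lymphocyte genes rose in all 9 tested of 10 (summed 269.5 to 364.2 CPM in CCI and 65.62 to 99.32 CPM in sham libraries). Most of that sum was the single gene Cd4, at 216 to 284 CPM in CCI and 62.5 to 96.1 CPM in sham libraries. The sum is therefore mainly a reading of Cd4 and is not read as a level of lymphocyte RNA. The listed Cd3 genes were far lower. Cd3d had 0.461 to 1.74 CPM in CCI and 0.0221 to 0.0942 CPM in sham libraries. Cd3e had 2.62 to 3.94 and 0.0471 to 0.411 CPM, and Cd3g 2.94 to 3.88 and 0.424 to 1.04 CPM. No listed marker of these cell types was at 0 in a whole group. Skeletal muscle RNA was uneven, at 17.32, 5782, 1133 and 794.7 CPM in CCI 1 to 4, against 49.23, 1058, 70.15 and 36.01 CPM in sham 1 to 4. Of 11 tested muscle genes 0 were called higher and 1 lower. That gene, Myh7, had 1.04 to 1.99 CPM in CCI and 16.6 to 37.3 CPM in sham libraries (edgeR adjusted p = 2.04e-06). Endothelial genes rose in 7 of 8 cases, and of 8 fibroblast genes 2 rose and 1 fell. For scale, 36.2% of all 15763 tested genes were called higher and 32.2% lower. In whole nerve, fewer cells of a type and less RNA per cell cannot be told apart.

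Proteasome genes were mostly higher in CCI nerve, and 1 gene, the inhibitor Psmf1, fell steeply. Of the 47 tested genes, 31 rose and 2 fell, against a background of 36.2% of all 15763 tested genes called higher and 32.2% called lower (edgeR's quasi-likelihood test, Benjamini-Hochberg adjusted p under 0.05). The share called in either direction was near the background of 68.4%, and the calls lay mostly on the higher side. The shares of all tested genes are also the background for the group counts below. All 5 inducible and 11S genes rose (median log2 fold change 1.86), and of 31 tested constitutive subunits 19 rose and 1 fell (median 0.25). The median log2 fold change of CCI over sham was 0.36 for the proteasome genes and 0.05 for all tested genes. In 32 of the 47 the CCI and sham libraries did not overlap in CPM, a share close to the 64.8% of all tested genes (34.2% higher and 30.6% lower). These counts depend on the scaling: with library totals only, 42 were higher and 1 lower, and the median of all genes moved to 0.27. Such a change of scaling shifts every gene by nearly the same amount. The distance of the proteasome median from that of all genes, 0.32 with either scaling, could therefore hardly change.

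Shorter genes had higher log2 fold changes throughout the table. This bears on the proteasome, whose tested genes had a median of 1358 bp, while that of all tested genes was 3020 bp. The median log2 fold change of all genes was 0.47 below 1000 bp, 0.28 from 1000 to 1500 bp and 0.13 from 1500 to 2000 bp. The proteasome genes of the same lengths had medians of 0.69 (12 genes), 0.43 (14 genes) and 0.26 (11 genes). With an offset that removes each library's trend on gene length, 24 proteasome genes were higher and 9 lower, with a median of 0.17 against 0.03 for all genes. Of the constitutive subunits, 14 were then higher, and Psma2, Psma4, Psmb7, Psmc1, Psmc3, Psmc5 and Psmd7 were lower, with a median of 0.08. The median of the inducible and 11S genes was 1.56. Under the 19 alternative settings, each of which changed the scaling, filter, test or libraries, 22 genes were called higher every time and Psmf1 was called lower every time. Those 22 included Psmb8, Psmb9, Psmb10, Psme1, Psme2, Psme3, Psme4 and 12 of the 31 tested constitutive subunits.

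**Figure D1:**
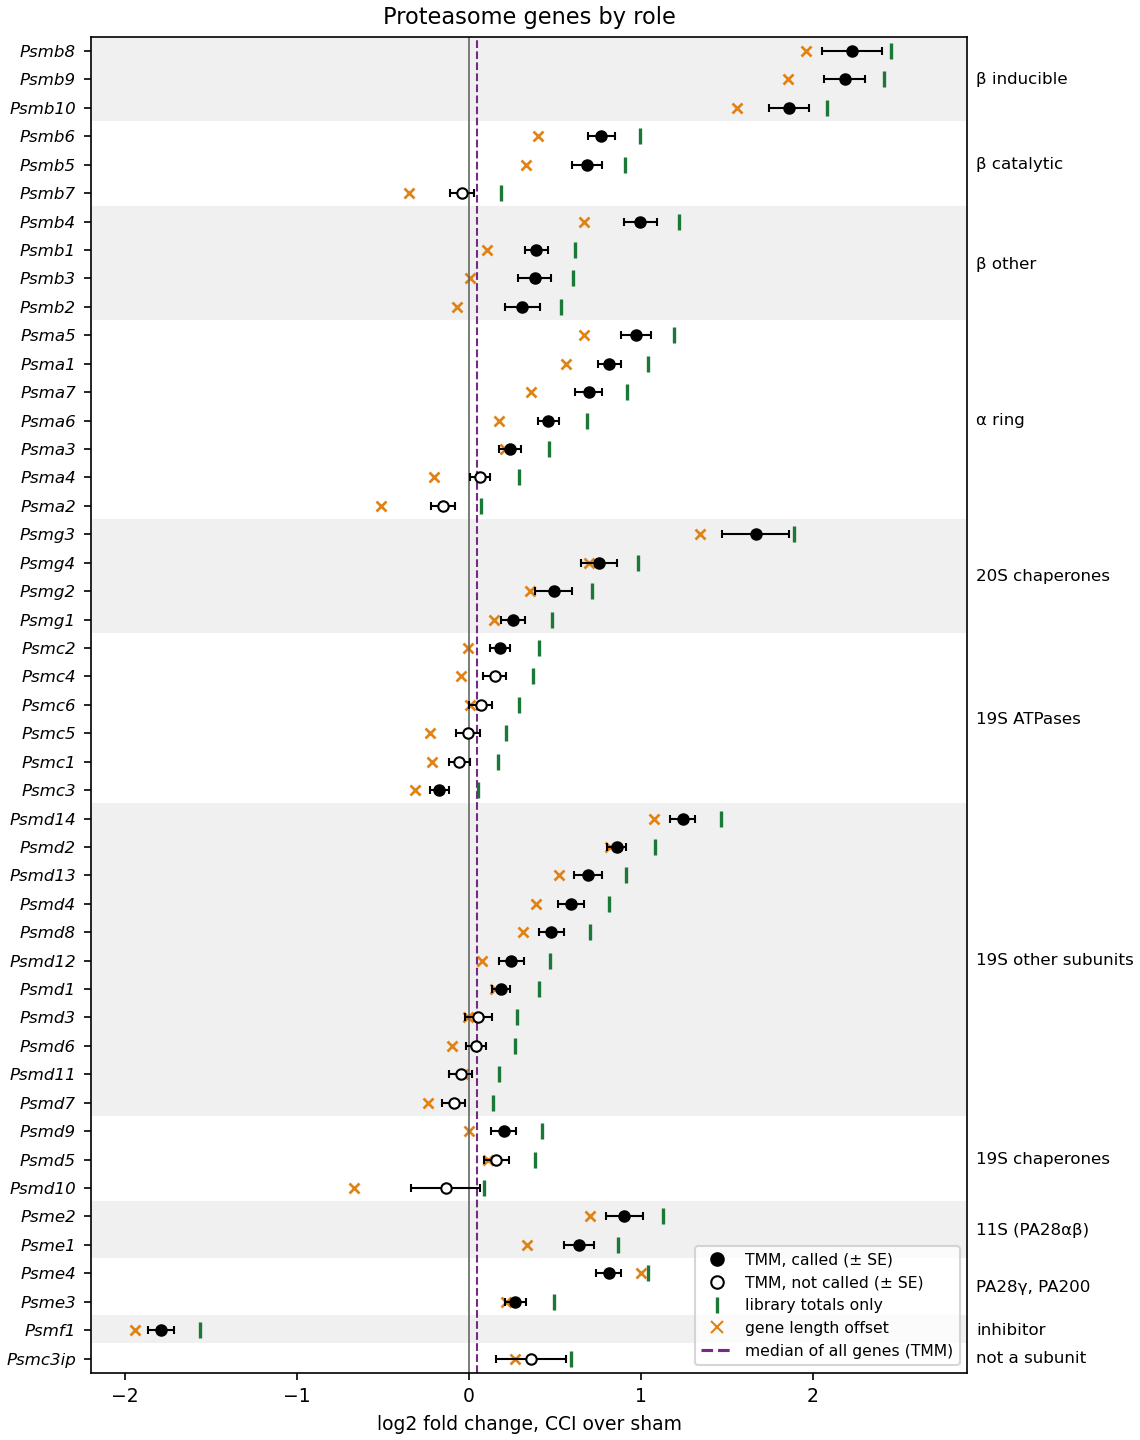
Log2 fold change of CCI over sham nerve (x axis) for the 47 tested genes, grouped by role from top to bottom; circles are the main fit with TMM scaling (± SE, 4 libraries per group, filled where adjusted p was under 0.05), green bars library totals only, orange crosses the gene length offset, and the dashed line the median of all genes. Psmb8, Psmb9 and Psmb10 lie farthest to the right and Psmf1 is alone far to the left under each of the 3 scalings, while the 19S ATPases lie around 0, and 5 of the 6 (all but Psmc6) change side with the scaling.

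The inducible catalytic subunits had the largest rises. Psmb8, which takes the place of Psmb5, had 30.2, 21.9, 28.0 and 20.1 CPM in CCI 1 to 4, against 5.65, 4.19, 4.86 and 6.66 CPM in sham 1 to 4. Psmb9, which takes the place of Psmb6, had 22.1, 21.3, 20.6 and 18.3 CPM in CCI and 5.29, 4.05, 4.04 and 4.70 CPM in sham libraries. Every CCI library lay well above every sham library for both genes, and CCI 4 was the lowest of its group in each. Psmb10, which takes the place of Psmb7, had 33.5, 28.8, 30.3 and 29.0 CPM in CCI and 7.37, 7.11, 9.13 and 9.84 CPM in sham libraries. The rises were 4.69-fold for Psmb8 (log2 2.23, SE 0.18, edgeR adjusted p = 1.23e-06), 4.55-fold for Psmb9 (log2 2.19, SE 0.12, 7.08e-08) and 3.63-fold for Psmb10 (log2 1.86, SE 0.12, 2.02e-07). Between 7.05% and 9.03% of all tested genes had a larger log2 fold change than these 3.

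The constitutive catalytic subunits moved less. Psmb5, the chymotrypsin-like subunit, had 62.1, 60.0, 51.8 and 59.4 CPM in CCI and 38.6, 36.4, 31.0 and 38.9 CPM in sham libraries. Psmb6, the caspase-like subunit, had 47.7, 45.5, 38.7 and 42.6 CPM in CCI and 26.4, 25.002, 23.9 and 27.1 CPM in sham libraries. Both rose without overlap between the groups, Psmb5 1.61-fold (edgeR adjusted p = 4.79e-05) and Psmb6 1.71-fold (9.29e-06). Psmb7, the trypsin-like subunit, had 49.3, 49.6, 51.3 and 50.7 CPM in CCI and 58.6, 50.1, 48.1 and 49.6 CPM in sham libraries. These groups overlapped, and its log2 fold change of -0.04 (SE 0.07) did not pass (edgeR adjusted p = 0.642). With the length offset it was called lower, at -0.35 (adjusted p = 0.00185), and with library totals only it was called higher, at 0.19 (0.0367).

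The share of the inducible form within each pair was larger in CCI nerve. It was taken from FPKM, counts divided by gene length and library total, so that genes of different length can be compared. Psmb8 made up 27.6, 22.3, 29.7 and 21.0% of the summed FPKM of Psmb8 and Psmb5 in CCI 1 to 4, against 10.3, 8.28, 10.95 and 11.8% in sham 1 to 4. Psmb9 made up 29.7, 29.9, 32.6 and 28.1% of its pair with Psmb6 in CCI and 15.4, 12.9, 13.4 and 13.7% in sham libraries. Psmb10 made up 39.8, 36.1, 36.5 and 35.7% of its pair with Psmb7 in CCI and 10.9, 12.1, 15.6 and 16.2% in sham libraries. The constitutive transcript was the more abundant of the 2 in every library. The log2 ratio of inducible to constitutive subunit differed between CCI and sham by 1.54 (SE 0.20) for Psmb8 to Psmb5, by 1.42 (SE 0.09) for Psmb9 to Psmb6 and by 1.91 (SE 0.17) for Psmb10 to Psmb7. Each difference had p = 0.0286 in an exact two-sided permutation test over the 8 libraries, the smallest that 4 against 4 can give, and 0.0381 after adjustment over the 8 ratios examined. A ratio within a library does not depend on how libraries are scaled.

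**Figure D2:**
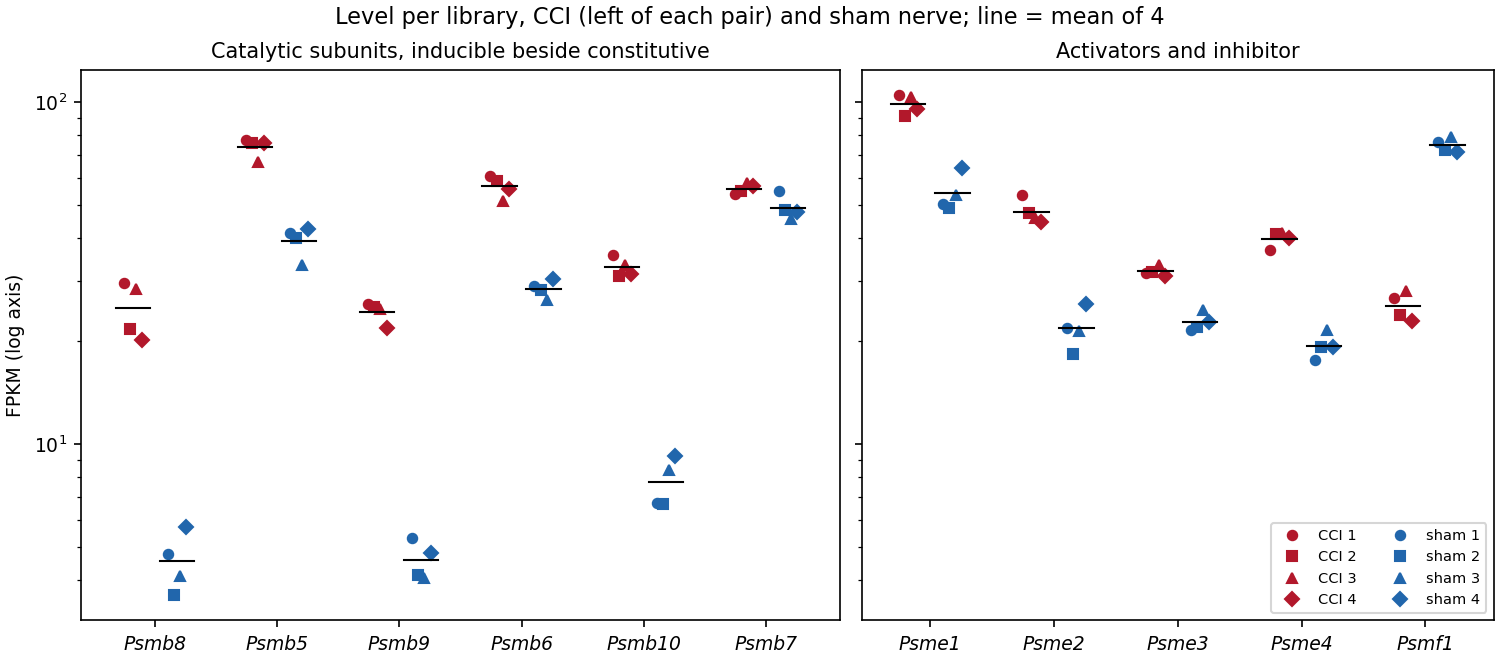
FPKM per library (log axis) of the inducible catalytic subunits beside the constitutive ones whose place they take (left) and of the activators and the inhibitor (right), with CCI libraries (red) left of sham libraries (blue) for each gene and the mean as a line. Psmb8, Psmb9 and Psmb10 averaged 24.9, 24.4 and 32.9 FPKM in CCI and 4.55, 4.58 and 7.74 FPKM in sham libraries, below the constitutive subunits in both groups, and Psmf1 is the single gene shown that is lower in CCI.

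Psmb8 and Psmb9 are neighbours in the MHC region with the peptide transporter gene Tap1 between them, in RefSeq's GRCr8 gene order. Their start regions are shown with those of Psmb10 and Psme2, inducible genes that also rose, beside those of the constitutive Psmb5 and Psmb6. Those of Psme1, which rose too, and of the constitutive Psmb7 are not shown. The windows run from 250 bases before to 50 bases after the annotated start and are from RefSeq, build GRCr8, while the counts were made on Rnor_6.0. They are chr20:4656982-4657281, minus strand for Psmb8, chr20:4668750-4669049, plus strand for Psmb9, chr19:50743243-50743542, minus strand for Psmb10, chr15:33052702-33053001, minus strand for Psme2, chr15:32047330-32047629, minus strand for Psmb5 and chr10:55737638-55737937, plus strand for Psmb6. Capitals mark matches, on either strand, to GAAA, 2 bases of any kind and GAAA again (the core of the interferon-stimulated response element), TTCNNNGAA (the gamma-activated site) or TGACNNNGC (the core of the antioxidant response element).
Psmb8: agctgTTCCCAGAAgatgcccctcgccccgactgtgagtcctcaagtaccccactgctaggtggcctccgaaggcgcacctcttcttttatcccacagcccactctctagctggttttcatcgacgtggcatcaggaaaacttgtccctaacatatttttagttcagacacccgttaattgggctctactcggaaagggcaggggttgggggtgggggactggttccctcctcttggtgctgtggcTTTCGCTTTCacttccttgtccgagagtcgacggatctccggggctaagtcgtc
Psmb9: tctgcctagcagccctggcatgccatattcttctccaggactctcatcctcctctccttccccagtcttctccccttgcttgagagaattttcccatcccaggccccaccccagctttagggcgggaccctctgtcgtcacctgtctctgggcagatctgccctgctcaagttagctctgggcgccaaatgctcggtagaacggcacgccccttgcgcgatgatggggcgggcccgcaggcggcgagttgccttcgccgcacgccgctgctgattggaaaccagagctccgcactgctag
Psmb10: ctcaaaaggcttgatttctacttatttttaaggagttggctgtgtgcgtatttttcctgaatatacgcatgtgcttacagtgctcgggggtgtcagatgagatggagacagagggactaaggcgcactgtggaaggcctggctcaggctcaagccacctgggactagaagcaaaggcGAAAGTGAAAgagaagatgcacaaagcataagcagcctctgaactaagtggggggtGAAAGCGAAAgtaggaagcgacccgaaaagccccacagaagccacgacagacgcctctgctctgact
Psme2: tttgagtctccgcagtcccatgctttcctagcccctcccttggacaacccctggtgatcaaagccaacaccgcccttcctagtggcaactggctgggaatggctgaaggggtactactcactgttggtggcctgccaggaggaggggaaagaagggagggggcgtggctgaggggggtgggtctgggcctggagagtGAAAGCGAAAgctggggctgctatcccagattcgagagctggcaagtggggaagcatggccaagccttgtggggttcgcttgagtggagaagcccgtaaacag
Psmb5: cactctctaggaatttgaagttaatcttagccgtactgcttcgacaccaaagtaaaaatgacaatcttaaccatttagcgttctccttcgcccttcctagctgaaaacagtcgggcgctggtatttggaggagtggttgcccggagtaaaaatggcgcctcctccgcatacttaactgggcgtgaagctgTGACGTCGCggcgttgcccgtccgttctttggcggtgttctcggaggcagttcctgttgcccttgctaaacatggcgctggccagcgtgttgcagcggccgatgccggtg
Psmb6: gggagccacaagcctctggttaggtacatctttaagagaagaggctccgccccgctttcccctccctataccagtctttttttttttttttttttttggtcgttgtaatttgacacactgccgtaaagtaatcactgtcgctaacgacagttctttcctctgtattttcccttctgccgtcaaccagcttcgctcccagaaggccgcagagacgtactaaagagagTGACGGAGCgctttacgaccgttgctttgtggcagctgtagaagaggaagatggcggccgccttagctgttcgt

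Of the 49 IDs, 44 had a start region in the RefSeq table. The interferon-stimulated core, also searched on the other strand as TTTC, 2 bases and TTTC, was found in 7 of these 44, and in 3.77% of all 27457 start regions. The 7 were Psmb8, Psmb10 and Psme2 of the inducible genes, and Psma4, Psmb3, Psmd7 and Psmg4. Psmb10 held it at 2 places, 73 and 17 bases before the start, Psme2 at 53 bases before it, and in Psmb8 the match began 4 bases before the start and ran across it. Psmb9, Psme1 and the constitutive Psmb7 held none of the 3 motifs in this window, which says only that these letters are not there. The window of Psmb9 shares 44 bases with that of Tap1, which is read from the other strand. TTCNNNGAA was found in Psmb8, Psmc6, Psmd3 and Psmd7 (8.68% of all regions). TGACNNNGC was found in 8 of the 44, Psma3, Psmb2, Psmb5, Psmb6, Psmd1, Psmd3, Psmd9 and Psme4, and in 12.2% of all regions. Of the 28 constitutive subunits with a start region, 6 held TGACNNNGC and 3 the interferon-stimulated core. Matches of different motifs did not overlap in these genes. A match describes the sequence and is not a measured binding site.

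Genes that act before and after the immunoproteasome in interferon-gamma signalling and MHC class I loading were mostly higher as well. Of 10 genes of peptide loading, 8 rose and 1 fell, Canx (median log2 fold change 0.96). Among all tested genes, 36.2% were called higher and 32.2% lower. Tap1, between Psmb8 and Psmb9, had 39.9, 38.5, 51.2 and 31.5 CPM in CCI and 11.2, 10.5, 9.55 and 13.5 CPM in sham libraries, a rise of 3.60-fold (edgeR adjusted p = 2.49e-06). Tap2, on the other side of Psmb8, had only 4 to 55 counts per library and was not called (log2 fold change -1.20, SE 0.63, edgeR adjusted p = 0.112). Whether the counting annotation covers Tap2 fully is not known. Nlrc5, a transactivator of MHC class I genes, rose 5.74-fold (25.7 ± 6.86 CPM in CCI and 4.47 ± 0.860 CPM in sham libraries, SD, n = 4 each; edgeR adjusted p = 2.27e-06). B2m, the light chain of MHC class I, rose 1.27-fold with overlapping groups (edgeR adjusted p = 0.0116). Of 14 genes of interferon-gamma signalling, 12 of the 13 tested rose and 0 fell (median 1.498), among them the transcription factors Irf8 (15.1-fold) and Irf1 (2.29-fold). Leukocyte and macrophage genes rose too, and their part in these rises was not tested. Ifng itself, the gene of interferon-gamma, had 0 counts in all 8 libraries. The annotation used for counting is not given, so whether this gene could collect reads is not known, and the 0 is not read as a limit on its level.

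The inducible subunits had smaller fold changes than the pan-leukocyte gene Ptprc (CD45), which had 203, 210, 242 and 185 CPM in CCI and 26.8, 26.1, 38.4 and 36.1 CPM in sham libraries, a rise of 6.59-fold (edgeR adjusted p = 1.33e-07). Leukocyte and macrophage genes differed among themselves: of the 11 listed, Csf1r (3.46-fold), Mrc1 (2.87-fold) and Cd163 (1.25-fold, not called) had smaller fold changes than all 3 inducible subunits, and Cd14 (4.56-fold) a smaller one than Psmb8. Ratios were taken to Ptprc alone. The ratio of Psmb10 to Ptprc in FPKM was 0.871, 0.723, 0.662 and 0.826 in CCI 1 to 4, against 1.45, 1.44, 1.25 and 1.44 in sham 1 to 4. Its log2 difference was -0.86 (SE 0.10; exact permutation p = 0.0286, adjusted p = 0.0381), lower in 4 of 4 CCI libraries. The ratios of Psmb8 and Psmb9 to Ptprc overlapped between the groups. Their log2 differences of -0.50 (SE 0.19) and -0.54 (SE 0.21) did not pass (exact permutation p = 0.0571 each, adjusted p = 0.0571). The difference for Psmb9 to Ptprc passed without sham 3, at -0.69 (exact permutation p = 0.0286). The ratios to Ptprc keep the trend on gene length, and the length offset was not applied to them. Ptprc (5271 bp) is longer than Psmb8 (1086 bp), Psmb9 (913 bp) and Psmb10 (999 bp). The part of the leukocyte genes in the rise of the immunoproteasome was not tested.

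**Figure D3:**
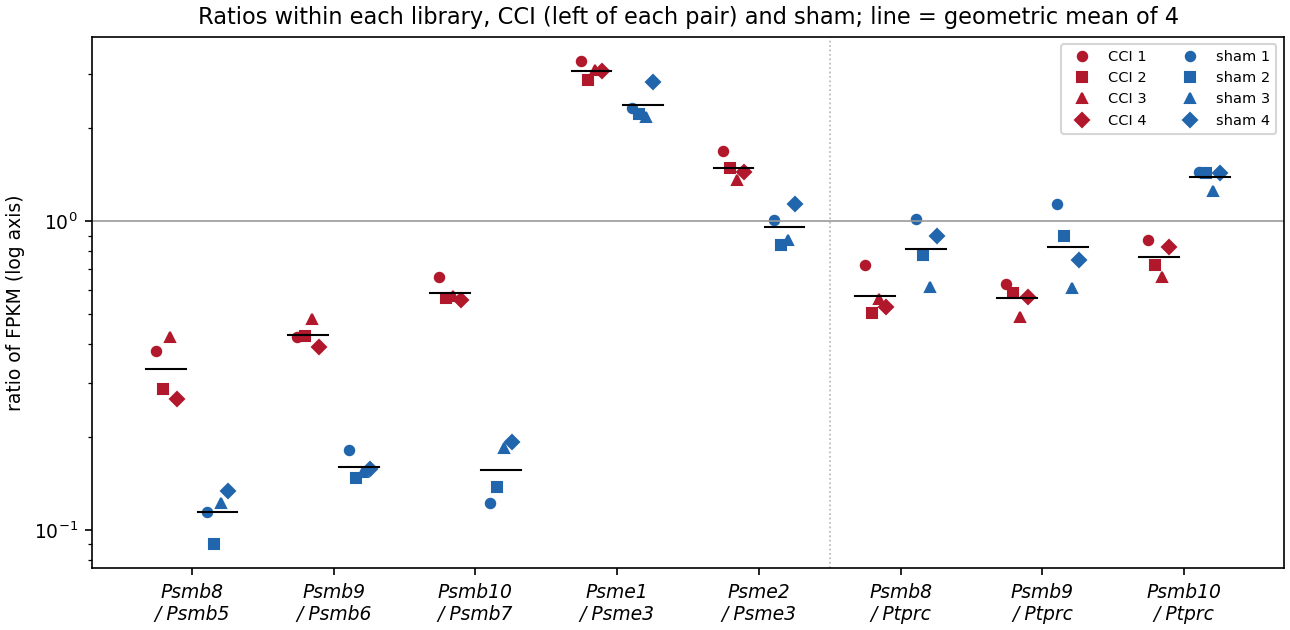
Ratio of FPKM within each library (log axis) for the inducible over the constitutive catalytic subunits, the 11S subunits over Psme3, and the inducible subunits over the leukocyte gene Ptprc, with CCI (red) left of sham (blue), 1 symbol per library number and the geometric mean as a line. The first 5 ratios are higher in all CCI libraries than in any sham library, that of Psmb10 to Ptprc is lower in all CCI libraries, and those of Psmb8 and Psmb9 to Ptprc overlap.

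The 11S activator genes rose, but less than the inducible catalytic subunits. Psme1 (PA28 alpha) had 98.7, 85.0, 93.9 and 87.8 CPM in CCI and 55.1, 52.4, 58.4 and 68.6 CPM in sham libraries. Its partner Psme2 (PA28 beta) had 67.5, 59.3, 55.7 and 55.2 CPM in CCI and 32.2, 26.3, 31.4 and 37.0 CPM in sham libraries. Sham 4 was the highest sham library for both, and the groups did not overlap. Psme1 rose 1.56-fold (edgeR adjusted p = 7.47e-05) and Psme2 1.87-fold (2.33e-05). Psme3 (PA28 gamma), the nuclear form, rose 1.21-fold, with 74.6 to 79.4 CPM in CCI and 61.3 to 70.2 CPM in sham libraries (edgeR adjusted p = 0.00220). The log2 ratio to Psme3 was higher in CCI by 0.37 (SE 0.09) for Psme1 and by 0.64 (SE 0.12) for Psme2 (exact permutation p = 0.0286 and adjusted p = 0.0381 for each). For Psme1 it had an exact p of 0.0571 without any 1 of the CCI libraries, with differences of 0.34 to 0.41. These ratios keep the trend on gene length, and Psme3 (2617 bp) is longer than Psme1 (1000 bp) and Psme2 (1343 bp). With the length offset the log2 fold changes of Psme1, Psme2 and Psme3 were 0.34, 0.70 and 0.22, so Psme1 lay nearer to Psme3.

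Psme4 (PA200), a large nuclear activator known from the breakdown of acetylated histones in the testis and from DNA repair, rose as well. It had 256, 282, 276 and 272 CPM in CCI and 142, 152, 173 and 151 CPM in sham libraries. All CCI libraries were above all sham libraries, and the rise was 1.76-fold (log2 0.81, SE 0.07, edgeR adjusted p = 2.57e-06). At 7366 bp it is the longest of the tested proteasome genes, and with the length offset its rise was larger, at 1.00 on the log2 scale. Genes of 5000 bp or more had a median log2 fold change of -0.15.

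Psmf1 (PI31), the inhibitor, went the other way. It had 39.5, 34.9, 39.8 and 33.0 CPM in CCI 1 to 4, against 131, 122, 135 and 120 CPM in sham 1 to 4. The lowest sham library was far above the highest CCI library, and within each group libraries 1 and 3 were above 2 and 4. The level was 3.46-fold lower in CCI (log2 fold change -1.79, SE 0.08, edgeR adjusted p = 1.72e-08), and 6.48% of all tested genes had a lower log2 fold change. In sham nerve its 75.0 ± 3.42 FPKM (SD, n = 4) stood above 25.3 ± 2.37 FPKM in CCI nerve. In sham nerve that was close to the most abundant core subunits, Psmb1 at 76.7 ± 4.29 and Psma2 at 75.6 ± 3.51 FPKM. The 8 myelinating Schwann cell genes fell with it, by a median of 3.37 on the log2 scale, and their part in the fall of Psmf1 was not tested.

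The alpha ring, which gates the core, had 5 of 7 tested members higher and 0 lower (median log2 fold change 0.46). Among all tested genes these shares were 36.2% and 32.2%. Psma5 had 49.1, 45.6, 39.1 and 41.5 CPM in CCI and 24.2, 22.7, 21.4 and 21.1 CPM in sham libraries, a rise of 1.96-fold (edgeR adjusted p = 2.75e-06). Psma1 rose 1.76-fold (1.71e-06), Psma7 1.62-fold (1.36e-05), Psma6 1.38-fold (5.50e-05) and Psma3 1.18-fold (0.00733). Psma2 and Psma4 did not pass. Psma2 had a log2 fold change of -0.15 (SE 0.07, edgeR adjusted p = 0.0733) that turned to 0.07 with library totals only and passed as lower without CCI 1 (adjusted p = 0.00632) and with the length offset (-0.51, 0.000108). It was also called lower with DESeq2's size factors as the scaling (-0.18, adjusted p = 0.0436) and with the 5 CPM filter (-0.21, 0.0157). Psma4 was at 0.06 (SE 0.06, adjusted p = 0.343), called lower with the length offset (-0.20, 0.00738) and higher with totals (0.29, 0.000663). Although the ring holds these subunits in equal number, their transcripts differed in sham nerve, with Psma5 at 20.3 ± 1.19 and Psma2 at 75.6 ± 3.51 FPKM (SD, n = 4). In CCI nerve the lowest was Psma3 at 40.1 ± 1.95 FPKM and the highest Psma7 at 86.7 ± 6.58 FPKM, close to Psma6 at 86.5 ± 4.28 FPKM. This order depends on the gene lengths used. Psma3, at 3166 bp the longest tested gene of the ring, had the highest mean CPM of them (118 in CCI and 99.7 in sham libraries).

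All 4 beta subunits that do not cut proteins rose (median 0.39). Psmb4 had 106, 88.2, 78.9 and 86.1 CPM in CCI and 45.6, 43.5, 40.9 and 49.9 CPM in sham libraries, a rise of 2.00-fold (log2 1.00, SE 0.10, edgeR adjusted p = 5.33e-06). Psmb1 rose by 0.39 (SE 0.07), Psmb3 by 0.38 (SE 0.10) and Psmb2 by 0.31 (SE 0.10) on the log2 scale. With the length offset these 3 were not called, at 0.11, 0.00401 and -0.07. Psmb2 was the member of this group whose libraries overlapped, and its call was lost without CCI 1 (edgeR adjusted p = 0.0698) or CCI 2 (0.0667). RefSeq names 10 copies of Psmb3 (pseudogenes or near copies), the most of any proteasome gene, so its count is uncertain.

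All 4 chaperones that assemble the core rose. Psmg3, which acts with Psmg4 early in building the alpha ring, had 10.1, 13.5, 10.3 and 11.2 CPM in CCI and 3.37, 3.67, 2.42 and 4.70 CPM in sham libraries. The groups were far apart, with a rise of 3.18-fold (log2 1.67, SE 0.20, edgeR adjusted p = 2.29e-05), the next largest after the inducible subunits. Its partner Psmg4 rose 1.69-fold (11.7 ± 0.962 CPM in CCI and 6.91 ± 0.291 CPM in sham libraries, SD, n = 4 each; adjusted p = 6.82e-05). Psmg1 and Psmg2, which form a pair that scaffolds the ring, rose 1.19-fold (0.00737) and 1.41-fold (0.00224). Psmg1 was not called with the length offset (log2 0.14, adjusted p = 0.0750). The maturation factor Pomp, which leads the inducible subunits into the core, had 3 to 22 counts per library and was not called (edgeR adjusted p = 0.245). Its 0.737 ± 0.197 FPKM in CCI and 0.389 ± 0.186 FPKM in sham libraries (SD, n = 4 each) were far below the core subunits, and whether the counting annotation covers Pomp fully is not known.

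The 19S ATPases, the ring that unfolds substrates, moved little. Of the 6, Psmc2 rose and Psmc3 fell, and the median log2 fold change was 0.03, close to the 0.05 of all tested genes. Psmc3 had 103, 94.7, 96.3 and 94.9 CPM in CCI and 108, 110, 108 and 113 CPM in sham libraries. The groups did not overlap but lay near each other, with a log2 fold change of -0.17 (SE 0.05, edgeR adjusted p = 0.0156) that turned to 0.05 with library totals only (0.402). Psmc2 was higher by 0.18 (SE 0.06, adjusted p = 0.0155), lost its call without CCI 1 (0.0756) or CCI 2 (0.0950), and was at -0.01 with the length offset. Psmc1, Psmc4, Psmc5 and Psmc6 had log2 fold changes between -0.06 and 0.15 that did not pass. Psmc4 passed as higher without sham 1 (0.0311). Calls of Psmc1 and Psmc5 turned on the scaling: with library totals only they (0.17, adjusted p = 0.0248, and 0.22, 0.0127) were called higher, and with the length offset both were called lower, at -0.22 each (0.0132 and 0.0111).

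The other 19S subunits were uneven, with 7 of 11 higher and 0 lower (median 0.25), against 36.2% and 32.2% of all tested genes. Psmd14, the lid enzyme that removes ubiquitin chains from substrates, had 37.6, 34.0, 33.1 and 34.8 CPM in CCI and 15.2, 15.3, 13.8 and 14.6 CPM in sham libraries. The groups were widely separated, and its rise of 2.37-fold was the largest of the 31 tested constitutive subunits (log2 1.24, SE 0.07, edgeR adjusted p = 1.10e-07). Psmd2, a base scaffold that binds ubiquitin shuttles, had 166, 153, 152 and 152 CPM in CCI and 88.0, 86.0, 83.8 and 85.5 CPM in sham libraries, a rise of 1.82-fold (2.36e-07). Psmd13 of the lid rose 1.62-fold (2.13e-05), the ubiquitin receptor Psmd4 1.51-fold (3.80e-05) and the lid subunit Psmd8 1.39-fold (0.000162). Psmd12 and Psmd1 rose by 0.25 (SE 0.07) and 0.19 (SE 0.05) on the log2 scale, and both lost their calls without CCI 2 (edgeR adjusted p = 0.0524 and 0.0577). Psmd12 was not called with the length offset either (0.08, adjusted p = 0.361). Psmd3, Psmd6, Psmd7 and Psmd11 had log2 fold changes between -0.09 and 0.05 and did not pass, and each changed sign with library totals only or with the length offset.

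Within the 19S cap, Psmd14 and Psmd7, which form a pair in the lid, had log2 fold changes of 1.24 and -0.09 (SE 0.07 each). The difference between these 2 genes was not tested. The 3 chaperones of the 19S base were near the background. Psmd9 was called higher at 0.20 (SE 0.07, edgeR adjusted p = 0.0322), but lost its call without any 1 library except sham 2 (0.0579 to 0.164). Psmd5, at 0.16 (SE 0.07, 0.0783), passed without sham 1 (0.0291). Psmd10 was low, at 2.14 ± 0.217 CPM in CCI and 2.35 ± 0.292 CPM in sham libraries (SD, n = 4 each), and was not called (0.563). Psmc3ip, at 3.12 ± 0.540 CPM in CCI and 2.43 ± 0.382 CPM in sham libraries, was not called either (0.136).

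**Figure D4:**
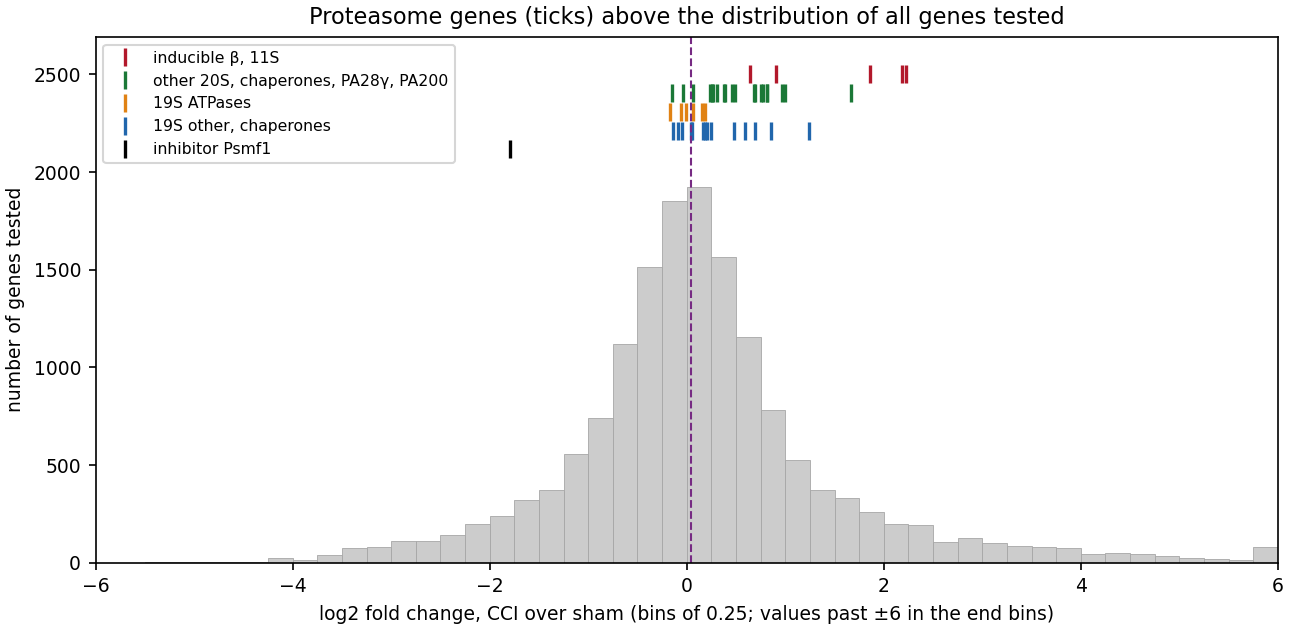
Number of tested genes by log2 fold change of CCI over sham (grey bars), with ticks above for the 46 tested proteasome genes (without Psmc3ip) by group and the median of all tested genes, 0.05, as a dashed line. The inducible subunits and 11S genes lie to the right, the 19S ATPases at the centre, where all but Psmc6 change side with the scaling, and Psmf1 to the left at -1.79.

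Partners of the proteasome were called in both directions at shares near those of all genes. Of 26 listed genes of ubiquitin, shuttle factors and proteasome-bound enzymes, 23 were in the table under these symbols, and 10 rose and 8 fell (median log2 fold change 0.23), against 36.2% of all tested genes higher and 32.2% lower. Vcp, the segregase that extracts ubiquitinated proteins, rose 1.77-fold (391 ± 24.6 CPM in CCI and 220 ± 6.95 CPM in sham libraries, SD, n = 4 each; edgeR adjusted p = 1.10e-06). Adrm1, a ubiquitin receptor of the 19S cap, was 1.61-fold lower, with 59.5, 62.0, 54.1 and 58.4 CPM in CCI and 90.3, 103, 93.8 and 88.5 CPM in sham libraries (5.96e-06). It fell while the receptor subunits Psmd4 and Psmd2 rose. Nfe2l1, the transcription factor that raises proteasome subunit genes when proteasome activity drops, had 240, 251, 259 and 239 CPM in CCI and 450, 535, 492 and 470 CPM in sham libraries. All CCI libraries were below all sham libraries, with a log2 fold change of -0.98 (SE 0.07, edgeR adjusted p = 5.81e-07).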

How the data were processed

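PolyA RNA of 4 CCI and 4 sham sciatic nerve libraries was analysed from 2 deposited tables. The authors deposited raw counts per gene, and FPKM values, which work out as counts over gene length and library total with no correction for library makeup. The submitters' processing notes name the build Rnor_6.0 and, as tools, DESeq2, HTSeq, HISAT2, fastp and R 3.2.0. No annotation or strand setting is given in the sources used here, so genes with near copies (19 of 49 proteasome IDs, in RefSeq's GRCr8 names) and the 8 whose span overlaps another protein-coding gene, such as Psme1 and Psmb1, are uncertain.

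The main test was edgeR 4.0.16 (R 4.3.3; filterByExpr, TMM, robust quasi-likelihood F test, no covariates) over all genes, with Benjamini-Hochberg adjustment over 15763 tested genes and calls at an adjusted p under 0.05. Standard errors were taken as the log2 fold change over the root of its F value. Adjusted p given for single genes are from this test unless another setting is named. Ratios were tested by exact two-sided permutation over libraries. Fits were tested on simulated data. Alternatives were other scalings, filters of none or 5 CPM in 4 libraries, DESeq2 1.42.0, limma-voom (limma 3.58.1), limma on log2(FPKM + 1), a gene length offset (lowess, span 0.3), the replicate block, and leaving out libraries. Intervals and floors cover counting error only.

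Genes that could be named were set by rule: any ID matching the prefixes, the 3 smallest p of each further list, and a fixed set (Tap1, B2m, Nlrc5, Irf1, Ifng, Nfe2l1, Pomp, Adrm1, Ptprc, Fbxo32, Trim63). A further gene of this set is not reported here. Canx, the single gene of its list that fell, and Tap2, Csf1r, Mrc1, Cd163 and Cd14 were named after their values were seen. The genes, lists and tests were chosen with earlier results of these data known. No 2 libraries of a group were duplicates, since chi-square over its degrees of freedom was 28.7 to 78.3.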

Additional observations from a re-analysis of the deposited data

Results flagged for a closer look

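In 7 of 110 groups of 4 libraries examined (47 genes and 8 ratios, CCI and sham each), 1 library lay far from the other 3. Chance alone does so in about 1 of 20 groups. Sham 3 was high for Psma2 (75.0 CPM, against 67.1 to 68.5 CPM in the other sham libraries) and for Psmd7 (66.3 against 57.2 to 58.6 CPM), and low for Psmd6 (41.7 against 45.7 to 46.4 CPM). These 3 genes were not called in the main test. Sham 2 was low for Psmd1 (119 against 125 to 126 CPM), and sham 4 was high for Psmg2 (8.67 against 7.23 to 7.40 CPM). CCI 1 was high for Psmd2 (166 against 152 to 153 CPM). The log2 ratio of Psmb10 to Ptprc was low in sham 3 (0.33, against 0.52 to 0.54 in the other sham libraries), the sham library richest in leukocyte RNA, and still above every CCI library.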

How the results depend on the processing

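Across alternatives the number of proteasome genes called higher stayed within 1.5 times of 31 (24 to 42), and all 5 inducible and 11S genes were called higher in each. The number called lower was 2, but 1 with library totals only, with limma on log2(FPKM + 1) and without CCI 2 and sham 2 (Psmf1), and 9 with the length offset. It was 3 with DESeq2's size factors as the scaling, with the 5 CPM filter and without CCI 1, where Psma2 was called as well. The median log2 fold change was 0.36, and 0.59 with library totals only, 0.53 with limma on FPKM, 0.29 without a filter, 0.28 with DESeq2 (both with Psma8 and Psmb11) and 0.17 with the length offset, and 0.27 to 0.38 when 1 library was left out. Signs reversed with library totals only for Psma2 (0.073), Psmb7 (0.19), Psmc1 (0.17), Psmc3 (0.053), Psmc5 (0.22), Psmd7 (0.14), Psmd10 (0.089) and Psmd11 (0.18). With limma on FPKM the same 8 were at 0.071, 0.19, 0.17, 0.052, 0.21, 0.13, 0.074 and 0.17. With the length offset Psma4 (-0.20), Psmb2 (-0.071), Psmc2 (-0.0061), Psmc4 (-0.047), Psmd3 (-0.0035), Psmd6 (-0.10) and Psmd9 (-3.1e-05) reversed. Psmc5 reversed with upper-quartile scaling (0.0032) and Psmd6 with the 5 CPM filter (-0.011). Leaving out 1 library gave ranges across 0 for Psmb7 (-0.080 to 0.025), Psmc5 (-0.058 to 0.014), Psmd3 (-0.021 to 0.11) and Psmd6 (-0.0020 to 0.056). All but Psmb2, Psmc2, Psmc3 and Psmd9 of these were not called in the main test. The cause of these changes was not tested.

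Replicate numbers did not pair the libraries (correlations of same-numbered libraries 0.12, 0.29, -0.02 and 0.03), and 2 of 4 CCI libraries correlated best with their own number. With the replicate block 30 proteasome genes were higher and 2 lower of 10505 genes called. For the ratios, sign flips within numbers left the differences at 1.54 (Psmb8 to Psmb5), 1.42 (Psmb9 to Psmb6), 1.91 (Psmb10 to Psmb7), 0.37 (Psme1 to Psme3), 0.64 (Psme2 to Psme3) and -0.86 (Psmb10 to Ptprc), each at exact p = 0.125, the smallest 4 pairs can give. Without CCI 2 and sham 2 they were 1.501, 1.39, 1.87, 0.38, 0.58 and -0.82, each at exact p = 0.1, the smallest 3 against 3 can give. Leaving out 1 library gave 0.33 to 0.45 for Psme1 to Psme3 and -0.69 to -0.39 for Psmb9 to Ptprc, which was -0.56 and passed (exact p = 0.0286) with a pseudocount of 1 FPKM. All genes called numbered 10788 and 8855 to 11325 in the alternatives, and 52.9% of calls were higher, but 66.9% with library totals only.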

Other observations

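Proteasome subunits and ubiquitin ligases rise in wasting muscle, and some libraries held muscle RNA, so the ligases of muscle atrophy were also read. Of 6 such genes, Fbxo32 fell (12.6 ± 3.87 CPM in CCI and 21.9 ± 4.21 CPM in sham libraries, SD, n = 4 each; edgeR adjusted p = 0.0120) and Traf6 rose. Trim63 had 0.276, 17.5, 5.42 and 4.57 CPM in CCI 1 to 4, against 4.62, 13.04, 5.32 and 2.38 CPM in sham 1 to 4, highest in both groups in the library richest in muscle RNA.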
